A study of Mus musculus with 4 samples.

Results

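The genes described here encode β-catenin, its close relative γ-catenin, the α-catenin that both bind, and the destruction complex that marks β-catenin for breakdown. They were chosen by name, from what their proteins are known to do, and no measured value enters the rule. They are the 10 genes Ctnnb1, Ctnna1, Apc, Axin1, Axin2, Gsk3a, Gsk3b, Csnk1a1, Btrc and Jup among the 24011 genes that could be tested. The RNA was read on 4 arrays of the type GeneChip Mouse Gene 2.1 ST, which hold probes along the whole length of each transcript. The cells were primary myoblasts of limb muscles, purified as muscle stem cells from young adult mice of a mixed C57bl6N/sv129 background and held for 24 h in differentiation medium with low horse serum. One group, wild-type, held 2 arrays, and the other, Rspo1-null, held 2 arrays from mice that lack R-spondin 1, with no restriction to a cell type named. The study counts heterozygous animals among its controls where it describes muscle histology, and the labels of these arrays name wild-type ones. The arrays of each genotype are numbered as replicates and were taken here as separate cultures. The p-values measure the spread between arrays of a genotype, which includes the differences in Xist state and muscle transcripts described below. No further treatment is named for either group. The question put by this design is how the loss of R-spondin 1, a secreted protein that strengthens Wnt signals, changes gene expression in differentiating muscle cells.

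Without a Wnt signal, the scaffold proteins Axin and Apc hold β-catenin while the kinases Csnk1a1 and Gsk3 phosphorylate it, and the ubiquitin ligase adaptor Btrc then sends it to the proteasome. A Wnt signal stops this complex, β-catenin builds up and enters the nucleus, and there it activates target genes with TCF and LEF proteins. A second pool of β-catenin ties cadherins to α-catenin at cell contacts, which myoblasts use before they fuse. Since much of this control acts on the protein, an array that measures mRNA does not show how much β-catenin protein a cell holds or how active the complex is.

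Before the results, 3 facts on the arrays bear on all of them. Rspo1, the targeted gene, had log2 levels of 5.71 and 5.84 in wild-type arrays 1 and 2 against 5.29 and 5.33 in Rspo1-null arrays 1 and 2, a log2 difference of -0.46 (standard error 0.15, adjusted p = 0.999 and unadjusted p of 0.0286 from limma). Both mutant levels stayed above the background level of 4.70 on the log2 scale. The place of the Rspo1 probes relative to the deletion is not stated in the sources used here, so these levels check the labels only partly. The unadjusted p of Rspo1 rose above 0.05 in 3 of the 4 fits that left out 1 array, up to 0.121, and with an intensity trend in limma or the replicate numbers as a block (0.0569 and 0.0664). Each genotype held 1 array with Xist, the RNA of the inactive X chromosome, namely wild-type 2 and Rspo1-null 1 (log2 levels 10.39 and 10.38), and 1 array without it, wild-type 1 and Rspo1-null 2 (4.35 and 4.07). These Xist states also differed in muscle transcripts: all 12 myocyte markers were lower in both arrays with Xist, and their median log2 level was 11.66 and 11.84 in the arrays without Xist (wild-type 1 and Rspo1-null 2) against 11.04 and 10.95 in those with it. Of 11 cell cycle genes, 8 were higher in both arrays with Xist. The Y-linked Eif2s3y had log2 levels of 8.19 and 8.51 in the arrays without Xist (wild-type 1 and Rspo1-null 2). It had 2.60 and 3.51 in those with Xist (wild-type 2 and Rspo1-null 1). Kdm5d and Uty, also Y-linked, were likewise above background only without Xist, so that the Xist states follow the sex of the cells. The effects of sex, of the culture and of the degree of differentiation cannot be told apart in these 4 arrays. In bulk RNA, fewer cells of a type and less RNA per cell cannot be told apart either. The 8 myoblast markers were all above background, while 1 of 7 fibroblast, 2 of 7 endothelial, 1 of 7 leukocyte, 0 of 3 Schwann cell, 0 of 5 adipocyte and 2 of 5 smooth muscle or pericyte markers were.

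Nearly the whole set was expressed in these cells, and no member differed between the genotypes beyond the spread between arrays. Of the 10 genes, 9 lay above background in all 4 arrays, and Axin2 lay below it in all 4. A gene counts as above background here when at least 1 genotype mean is over 4.70, the 95th percentile of the levels of 1365 receptor genes of smell and of the vomeronasal organ, taken as genes that muscle cells should not use. In limma, 0 of 10 members passed an unadjusted p of 0.05, against 3.17% of all genes, and 0 passed an adjusted one, as did 0% of all genes. With the replicate numbers as a block 0 members passed the unadjusted threshold, against 1.67% of all genes. The lowest unadjusted p among the members was 0.205 and their lowest adjusted p was 0.999. For 8 of the 9 members above background the mean difference, Rspo1-null minus wild-type, was under 0.1 in size on the log2 scale. The 95% intervals of these 9 members ran from -0.64 at the lowest to 0.72 at the highest, so that for each of them a change of 1 on the log2 scale, in either direction, lay outside the interval of this fit. Smaller changes lay inside it, and the number of arrays limits the precision.

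**Figure D1:**
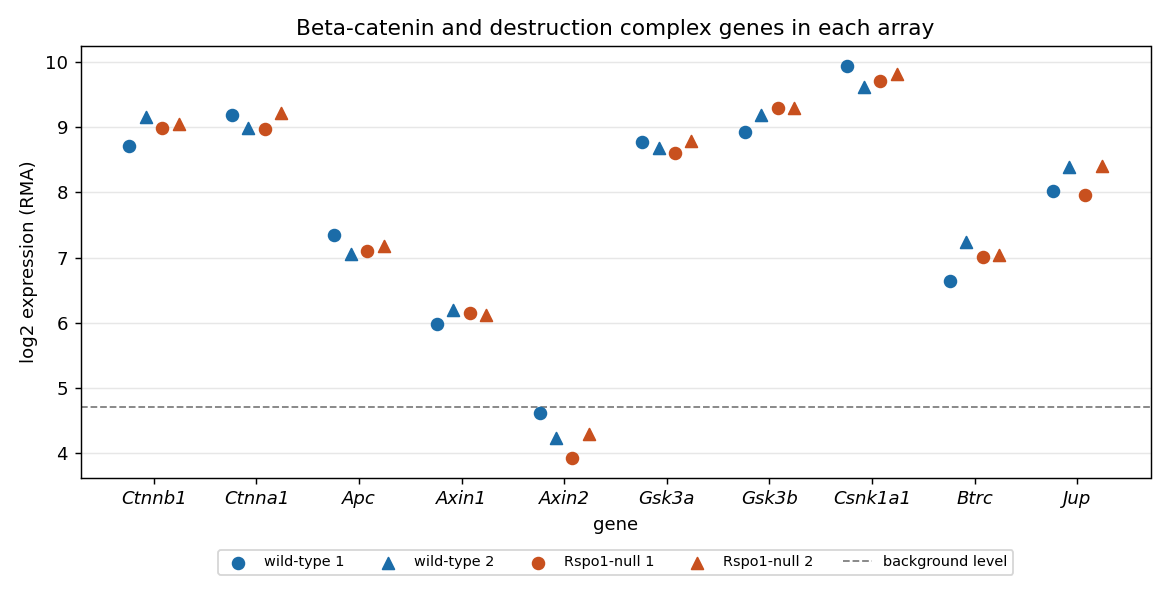
Log2 level of each of the 10 genes (vertical axis) in each of the 4 arrays, with points by array and the background level of 4.70 as a line. The points of each gene lie close together, with Axin2 alone below the line, and levels of different genes are not comparable because their probes differ.

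The DNA just before the start of transcription is shown for 4 members, so that the letters known to bind TCF and LEF proteins can be seen or missed at the gene of β-catenin, at its reported output Axin2 and at both Gsk3 genes. The windows hold the 250 bases before the start in RefSeq on GRCm38.p6, written along the gene's strand. Such windows were read for 5 of the 10 genes, matched by symbol, from the most upstream start where the table had several. Windows on a held-out chromosome were not read for the members, and the share over all windows was taken without that step. Capitals mark CTTTGA or its reverse complement TCAAAG, a form of the core that TCF and LEF proteins recognise. Other forms of that core were not searched. Capitals also mark GGGCGG or its reverse complement CCGCCC, the GC box of Sp1-type factors. The 2 motifs share no overlapping match in these windows. Ctnnb1 lies at chr9:120933150-120933399 (plus strand), Axin2 at chr11:108920099-108920348 (plus strand), Gsk3a at chr7:25237852-25238101 (minus strand) and Gsk3b at chr16:38088751-38089000 (plus strand).
Ctnnb1: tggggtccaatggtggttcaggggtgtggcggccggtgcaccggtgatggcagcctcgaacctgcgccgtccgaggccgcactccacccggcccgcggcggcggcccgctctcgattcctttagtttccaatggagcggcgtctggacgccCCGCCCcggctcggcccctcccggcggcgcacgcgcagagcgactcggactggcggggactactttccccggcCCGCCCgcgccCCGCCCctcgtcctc
Axin2: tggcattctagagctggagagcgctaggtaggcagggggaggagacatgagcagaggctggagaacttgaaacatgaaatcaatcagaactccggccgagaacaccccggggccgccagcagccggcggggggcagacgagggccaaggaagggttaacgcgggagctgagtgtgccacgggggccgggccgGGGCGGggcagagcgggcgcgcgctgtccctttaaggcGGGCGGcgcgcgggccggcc
Gsk3a: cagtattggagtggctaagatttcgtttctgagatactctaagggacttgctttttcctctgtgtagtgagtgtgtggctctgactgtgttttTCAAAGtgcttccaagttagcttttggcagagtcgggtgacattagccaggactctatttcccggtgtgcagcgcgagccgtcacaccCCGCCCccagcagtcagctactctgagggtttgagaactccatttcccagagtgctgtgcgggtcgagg
Gsk3b: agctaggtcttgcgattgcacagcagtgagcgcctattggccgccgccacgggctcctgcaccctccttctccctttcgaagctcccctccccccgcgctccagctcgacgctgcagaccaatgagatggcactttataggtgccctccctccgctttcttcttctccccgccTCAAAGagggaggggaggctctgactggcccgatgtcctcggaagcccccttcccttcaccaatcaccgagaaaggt

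This form of the TCF and LEF core was found in 2 of the 5 windows, those of Gsk3a and Gsk3b, against 13.8% of 32851 promoter windows of the same length. It began 157 bases before the start of Gsk3a and 77 bases before that of Gsk3b, in the same orientation. The Ctnnb1, Axin2 and Jup windows held no such letters, which says only that they are not in these 250 bases. GC boxes were found in 4 of the 5 windows, with 3 at Ctnnb1, 2 each at Axin2 and Jup and 1 at Gsk3a, against 32.7% of windows. The Ctnnb1 window was 74.8% G and C, that of Axin2 69.2%, those of Gsk3b and Jup 62% and that of Gsk3a 52%. A match is a string of letters, and binding was not measured here.

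Ctnnb1 encodes β-catenin itself. Its log2 levels were 8.72 and 9.16 in wild-type arrays 1 and 2 and 8.98 and 9.06 in Rspo1-null arrays 1 and 2. Both mutant levels lay between the wild-type ones, so that the genotypes overlapped and the wild-type pair spanned the whole range of 0.44. The means were 8.94 ± 0.31 and 9.02 ± 0.05 (SD, n = 2 each), and the log2 difference was 0.08 (standard error 0.20, 95% interval -0.45 to 0.62, adjusted p = 0.999 and unadjusted p of 0.704 from limma), which corresponds to a fold of 1.06 (0.731 to 1.53). The sign of this difference depended on the arrays: it was -0.17 between the arrays with Xist and 0.34 between those without.

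Jup encodes γ-catenin (plakoglobin), which binds cadherins and Axin as β-catenin does and also serves in desmosomes. It had log2 levels of 8.02 and 8.38 in wild-type arrays 1 and 2 and 7.96 and 8.41 in Rspo1-null arrays 1 and 2. In each genotype the array numbered 2 was the higher one, and the genotypes overlapped. The log2 difference was -0.02 (standard error 0.24, 95% interval -0.64 to 0.61, adjusted p = 1 and unadjusted p of 0.947 from limma), and it was -0.43 with Xist and 0.39 without, the widest gap between the Xist states in the set.

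Ctnna1 encodes αE-catenin, which links β-catenin and γ-catenin to actin at cadherin junctions. Its log2 levels were 9.19 and 8.99 in wild-type arrays 1 and 2 and 8.97 and 9.21 in Rspo1-null arrays 1 and 2. Both arrays with Xist were low and both without were high, in either genotype, and the log2 difference between genotypes was 0.00 (standard error 0.17, 95% interval -0.45 to 0.46, adjusted p = 1 and unadjusted p of 0.997 from limma).

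The scaffolds of the destruction complex are Apc, Axin1 and Axin2. Apc, a large scaffold that also binds microtubules, had log2 levels of 7.35 and 7.05 in wild-type arrays 1 and 2 and 7.11 and 7.18 in Rspo1-null arrays 1 and 2. The mutant levels again fell between the wild-type ones, and the log2 difference was -0.06 (standard error 0.17, 95% interval -0.51 to 0.39, adjusted p = 0.999 and unadjusted p of 0.755 from limma). Axin1, the scaffold that is made in most cells, had log2 levels of 5.99 and 6.20 in wild-type arrays 1 and 2 and 6.15 and 6.12 in the mutant ones. Its mutant levels too lay inside the wild-type range, with a log2 difference of 0.04 (standard error 0.16, 95% interval -0.38 to 0.45, adjusted p = 1 and unadjusted p of 0.821 from limma).

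Axin2, a second Axin that β-catenin switches on in many tissues and that then dampens the signal, is the member most often read as an output of the pathway. Its log2 levels were 4.62 and 4.24 in wild-type arrays 1 and 2 and 3.92 and 4.29 in Rspo1-null arrays 1 and 2. Rspo1-null 1 was the lowest and wild-type 1 the highest, while Rspo1-null 2 lay above wild-type 2, so that the genotypes overlapped. The measured log2 difference was -0.32 (standard error 0.22, 95% interval -0.91 to 0.27, adjusted p = 0.999 and unadjusted p of 0.213 from limma). It was -0.31 with Xist and -0.33 without, and with the Xist state as a block in limma the unadjusted p was 0.087, while 5.35% of all genes passed 0.05 in that fit. Since all 4 levels were below background, no fold is given. The promoter window of Axin2 printed with those of Ctnnb1 and the Gsk3 genes held no TCF and LEF core of the form searched. With the background set at the 90th percentile of the receptor genes, 4.03, Axin2 counted as above background and all 10 members did.

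The kinases of the complex are Csnk1a1, which places the first phosphate on β-catenin, and Gsk3a and Gsk3b, which place those that follow. Csnk1a1 had log2 levels of 9.95 and 9.62 in wild-type arrays 1 and 2 and 9.71 and 9.82 in Rspo1-null arrays 1 and 2. The mutant levels lay inside the wild-type range, and the log2 difference was -0.02 (standard error 0.18, 95% interval -0.49 to 0.46, adjusted p = 1 and unadjusted p of 0.927 from limma). Gsk3a, which acts in glycogen metabolism as well, had log2 levels of 8.77 and 8.69 in wild-type arrays 1 and 2 and 8.60 and 8.79 in the mutant ones. It was the steadiest member: its range over the 4 arrays was 0.19 on the log2 scale, and 8.06% of the genes above background had a smaller one. The log2 difference of Gsk3a was -0.03 (standard error 0.15, 95% interval -0.44 to 0.38, adjusted p = 1 and unadjusted p of 0.843 from limma).

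Gsk3b, the isoform most studied in Wnt signaling, had log2 levels of 8.93 and 9.19 in wild-type arrays 1 and 2 and 9.30 and 9.30 in Rspo1-null arrays 1 and 2. Both mutant levels lay above both wild-type ones, which made Gsk3b the 1 member of 10 whose genotypes did not overlap, against 31.2% of all genes in either direction and 12.1% with the mutant higher. Its log2 difference was 0.24 (standard error 0.16, 95% interval -0.19 to 0.67, adjusted p = 0.999 and unadjusted p of 0.205 from limma), a fold of 1.18 (0.876 to 1.60), and did not pass the test. The difference was 0.11 with Xist and 0.37 without, and wild-type 1 was the array farthest from the rest.

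Btrc encodes β-TrCP1, the F-box protein that recognises phosphorylated β-catenin. Its log2 levels were 6.64 and 7.24 in wild-type arrays 1 and 2 and 7.01 and 7.04 in Rspo1-null arrays 1 and 2. Wild-type 1 was the lowest and wild-type 2 the highest, as for Ctnnb1, with both mutant arrays between them. The log2 difference was 0.09 (standard error 0.24, 95% interval -0.55 to 0.72, adjusted p = 0.999 and unadjusted p of 0.739 from limma), and the range over the arrays, 0.60, was the widest among the members above background.

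**Figure D2:**
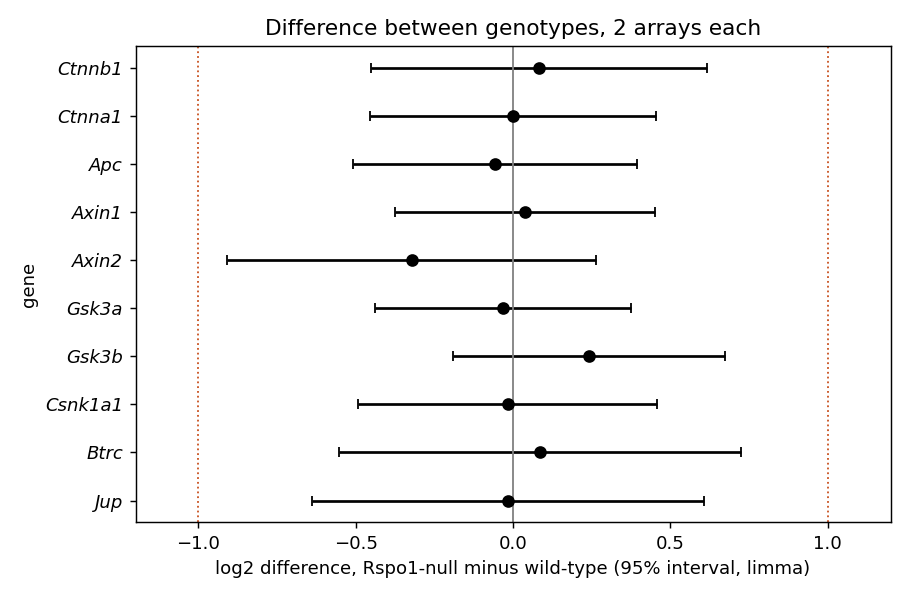
Log2 difference of each gene, Rspo1-null minus wild-type (horizontal axis), with points for the mean difference of 2 arrays against 2 and bars for the 95% interval from limma. Every interval crosses 0, and those of the 9 genes above background lie between -0.64 and 0.72.

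Among the members, the spread between arrays of one genotype was as large as the gap between genotypes or larger. The median range over the 4 arrays was 0.327 for the 9 members above background and 0.504 for the 12244 genes above background. Of those 9, 8 had a smaller range than that median. In 8 of the 10 members the genotype difference had opposite signs in the arrays with and without Xist. All 8 are among the 9 members above background, and 44.9% of genes above background did so. Gsk3b was higher and Axin2 lower in the mutant in both Xist states. These were also the 2 members that kept 1 sign whichever array was left out, with sizes that varied widely. Gsk3b ran from 0.11 without wild-type 1 to 0.37 without wild-type 2, and Axin2 from -0.13 without wild-type 1 to -0.51 without wild-type 2. Leaving out an array moved the other 8 to both signs, for instance Ctnnb1 to between -0.14 and 0.30 and Btrc to between -0.22 and 0.39 on the log2 scale.

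The order of the arrays by Xist state was also read for each member. Ctnna1, Apc, Axin2, Gsk3a and Csnk1a1 were lower in both arrays with Xist than in both arrays without it, and Axin1 was higher in both. These are 6 of 10 members, a share near that of 48.1% of genes above background and 42% of all genes. For Axin2 the mean log2 difference between the Xist states was -0.37, beside genotype differences of -0.31 and -0.33 within them. The myocyte markers were lower in the same 2 arrays, as for Myog, the differentiation regulator myogenin, at 9.56 and 9.96 with Xist (wild-type 2 and Rspo1-null 1) against 11.07 and 11.70 without. The part of differentiation in the members' levels was not tested. Wild-type 1 was the highest or the lowest array for 7 of 10 members, lowest for Ctnnb1, Axin1, Gsk3b and Btrc and highest for Apc, Axin2 and Csnk1a1. It was so for 59.1% of all genes and 61.1% of genes above background.

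**Figure D3:**
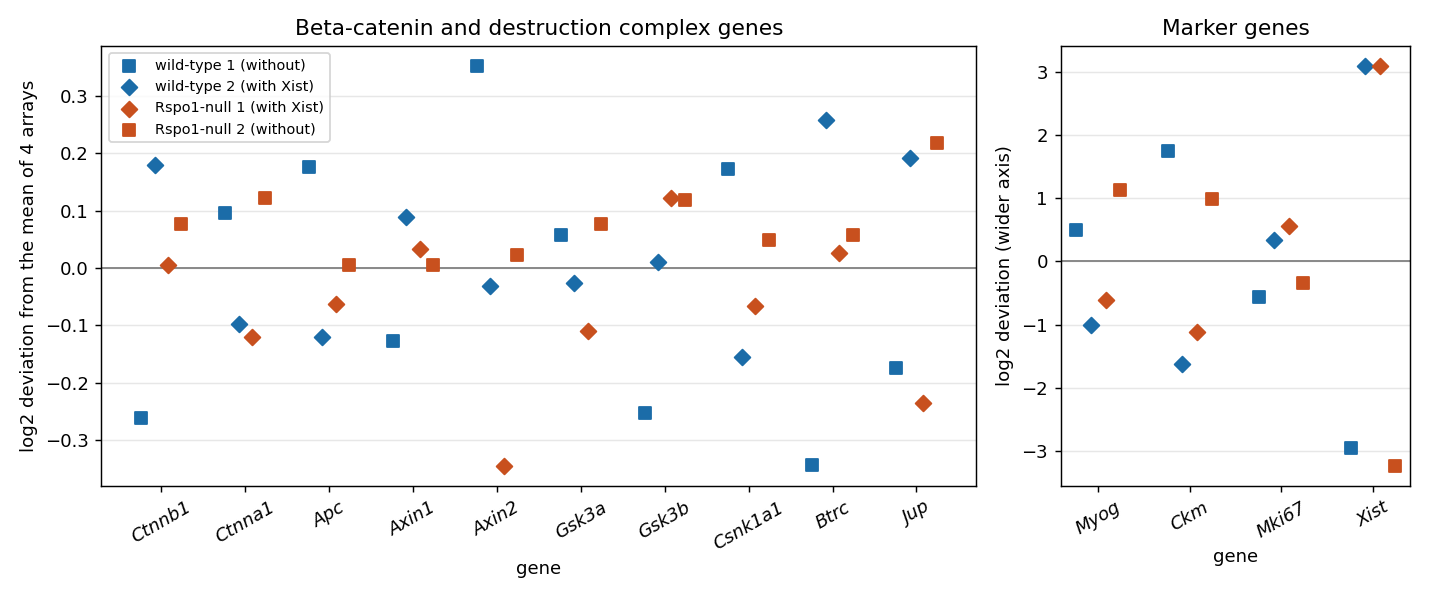
Deviation of each gene from its own mean over the 4 arrays, on the log2 scale, for the 10 genes (left) and, on a wider axis, for marker genes (right), with points by array. The members stay within a far narrower band than Ckm, Myog and Xist, and the arrays change order from gene to gene.

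Close relatives of the members could share their work, and 9 of 12 such genes were above background. None of the 12 passed an unadjusted p of 0.05 in limma, 4 had a higher and 8 a lower mutant mean, and their median log2 difference was -0.05, beside -0.03 over all genes. Fbxw11, the second β-TrCP, had log2 levels of 7.95 and 7.87 in wild-type arrays 1 and 2 and 7.86 and 7.79 in the mutant ones. The genotypes of Fbxw11 did not overlap, but by a log2 difference of -0.09 (standard error 0.14, adjusted p = 0.999 and unadjusted p of 0.577 from limma). Apc2, an Apc relative best known from neurons, lay slightly above background at log2 levels between 5.03 and 5.17, with a difference of 0.01. The casein kinases Csnk1d and Csnk1e, which act on Wnt components besides their role in the circadian clock, differed by -0.02 and -0.03 on the log2 scale (standard errors 0.14 and 0.19). Csnk1g2, a membrane-bound casein kinase, had log2 levels of 7.04 and 7.40 in wild-type arrays 1 and 2 and 7.60 and 7.69 in the mutant ones. This was a log2 difference of 0.43 (standard error 0.19, adjusted p = 0.999 and unadjusted p of 0.074 from limma), with no overlap and no call. Without wild-type 2 the Csnk1g2 difference was 0.61 (unadjusted p of 0.0367 from limma), and without wild-type 1 it was 0.25.

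The wider circle of complex partners, such as Dishevelled proteins, subunits of the phosphatase PP2A and of the SCF ubiquitin ligase, held 33 genes with a name here, 29 of them above background. Of these 33, 0 passed an unadjusted p of 0.05, 14 had a higher and 19 a lower mutant mean, and the median log2 difference was -0.02. In 13 of them, 39.4%, the genotypes did not overlap, 6 with the mutant higher and 7 with it lower, beside 31.2% of all genes, 12.1% higher and 19.1% lower. Dvl1, a Dishevelled that carries the Wnt signal to Axin, had log2 levels of 6.21 and 6.31 in wild-type arrays 1 and 2 and 6.50 and 6.55 in the mutant ones (difference 0.27, standard error 0.14, adjusted p = 0.999 and unadjusted p of 0.129 from limma). The methods' test, in which a gene's own spread is used alone, gave Dvl1 an unadjusted p of 0.0382. The PP2A subunits went different ways without a call: log2 differences were 0.44 for the scaffold Ppp2r1a, 0.38 for Ppp2r5d and -0.26 for the other scaffold Ppp2r1b. The catalytic subunit Ppp2cb had the highest difference of the list, 0.49 (standard error 0.32), with overlapping genotypes. The subunits Ppp2ca, Ppp2r5a, Ppp2r5b, Ppp2r5c and Ppp2r5e differed by -0.14, 0.02, -0.02, -0.06 and -0.02. Without Rspo1-null 1 the differences of Ppp2r1a and Ppp2r5d were 0.72 and 0.62 (unadjusted p of 0.0379 and 0.0456 from limma), and without Rspo1-null 2 they were 0.16 and 0.14. Leaving out an array moved Ppp2r1b between -0.40 and -0.13 and Rbx1 between -0.47 and -0.15, without a call. Dact3, an inhibitor that binds Dishevelled, had log2 levels of 5.13 and 5.03 in wild-type arrays 1 and 2 and 4.64 and 4.79 in the mutant ones. These levels lay close to background, and the difference was -0.36 (standard error 0.15, adjusted p = 0.999 and unadjusted p of 0.0646 from limma). Rbx1, the RING subunit of the SCF ligase, differed by -0.31 (standard error 0.18, adjusted p = 0.999 and unadjusted p of 0.146 from limma).

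At the cadherin junction, where the second pool of β-catenin sits, 2 of 24 genes passed an unadjusted p of 0.05, both higher in the mutant, beside 1.2% of all genes in that direction and 1.97% in the other, and 0 passed an adjusted p. Cdh11, a cadherin of mesenchymal cells, had log2 levels of 6.42 and 7.69 in wild-type arrays 1 and 2 and 8.88 and 8.21 in Rspo1-null arrays 1 and 2. Both mutant levels were higher, by 1.49 on average (standard error 0.49, adjusted p = 0.999 and unadjusted p of 0.0324 from limma). Without wild-type 1 the Cdh11 difference was 0.85 (unadjusted p of 0.0908 from limma), and without Rspo1-null 1 it was 1.15 (0.133), with the call lost in both, as it was with the replicate block (0.0686) and with the methods' test (0.175). Without wild-type 2 the difference was 2.12 (unadjusted p of 0.00708 from limma), and with the Xist state as a block the unadjusted p was 0.00166. Ajuba, a LIM protein that binds α-catenin, had log2 levels of 7.39 and 7.38 in wild-type arrays 1 and 2 and 7.70 and 8.19 in the mutant ones. Its log2 difference was 0.56 (standard error 0.21, adjusted p = 0.999 and unadjusted p of 0.0492 from limma). The Ajuba call was lost without wild-type 1 (unadjusted p of 0.134 from limma), without wild-type 2 (0.138) and without Rspo1-null 2, where the difference fell to 0.32 (0.211). With the Xist state as a block it held (0.0374), as it did with median centring (0.0392) and without Rspo1-null 1, where the difference was 0.80 (0.0211). The call was lost with the replicate block (0.0735), the intensity trend (0.0631), cyclic loess (0.0752), only genes above background (0.0647) and the methods' test (0.147). The cadherins of muscle stem cells and myoblasts differed less, with 0.03 for M-cadherin, Cdh15, and 0.12 for N-cadherin, Cdh2 (standard errors 0.21 and 0.18), and p120-catenin, Ctnnd1, differed by 0.12 (standard error 0.17). The desmosome genes Pkp1 and Dsp sat at background: their log2 means were 4.78 and 4.83 in wild-type and 4.39 and 4.57 in Rspo1-null arrays, so that both counted as above 4.70 through the wild-type mean alone, and no direction is read from them.

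Genes known as direct or frequent targets of β-catenin held 23 named members beside Axin2, of which 13 were above background. With all 4 arrays none passed an unadjusted p of 0.05 in limma, beside 3.17% of all genes. A higher mutant mean was seen in 10 and a lower one in 13. The median log2 difference was -0.04, beside -0.03 over all genes. Over the 13 targets above background the median was 0.08, beside 0.03 over all genes above background. In 4 of the 23, 17.4%, the genotypes did not overlap, each with the mutant lower, beside 19.1% of all genes in that direction. Among these, Notum, Rnf43 and Bmp2 lay below background in every array, so that no direction is read from them. Jun lay above background. Differences over the list ran from -0.60 for Tnfrsf19 to 0.43 for Apcdd1. The study reported that WNT3A raised Fst, Gja5 and Tgfb2 in control myocytes, and that Fst and Bmp2 were lower in mutant myocytes by qPCR. From its arrays it also reported lower expression of a set of canonical Wnt genes, and that set was not compared with the list used here. In these arrays, without WNT3A, Fst, Gja5 and Tgfb2 differed by 0.11, 0.08 and -0.32 (standard errors 0.45, 0.71 and 0.44), with overlapping genotypes. Bmp2, below background, differed by -0.32 (standard error 0.19). Lef1, both a partner of β-catenin and a target, had log2 levels of 7.34 and 8.30 in wild-type arrays 1 and 2 and 7.41 and 7.65 in Rspo1-null arrays 1 and 2. Wild-type 2 stood above the other 3 arrays, and the difference was -0.29 (standard error 0.35, adjusted p = 0.999 and unadjusted p of 0.447 from limma). Without wild-type 2 the Lef1 difference was 0.19, and without wild-type 1 it was -0.77 (unadjusted p of 0.0272 from limma). Jun, a subunit of the AP-1 factor, had log2 levels of 8.60 and 7.83 in wild-type arrays 1 and 2 and 7.80 and 7.45 in the mutant ones, a difference of -0.59 (standard error 0.31, adjusted p = 0.999 and unadjusted p of 0.123 from limma). Without wild-type 1 the Jun difference was -0.20 (unadjusted p of 0.458 from limma), and without wild-type 2 it was -0.97 (0.0214).

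**Figure D4:**
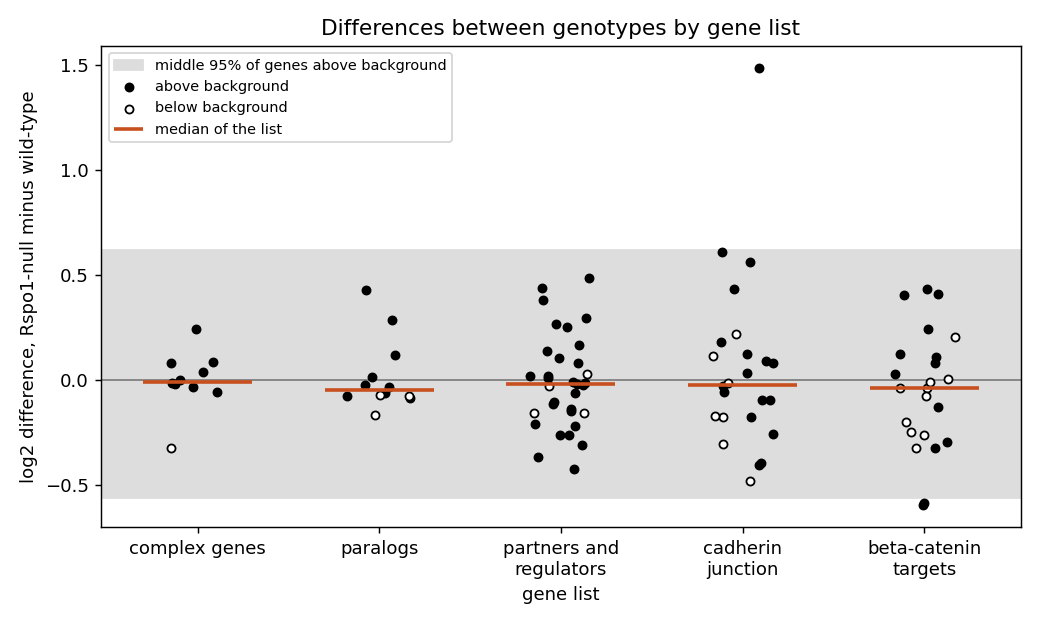
Log2 difference, Rspo1-null minus wild-type (vertical axis), of each gene in the member set and in 4 lists of related genes, with a point per gene and a band for the middle 95% of genes above background, from -0.56 to 0.62. The members lie inside the band, and Cdh11 is the gene farthest outside it.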

How the data were processed

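The authors deposited log2 values, 1 per Entrez gene and array, for 4 arrays, and RMA and Partek are the tools given, with no version, in the submitters' processing notes. RMA corrects background, equalises the arrays' distributions and summarises probes, so that a shift shared by all genes of an array is removed, and the 4 medians spanned 4.62 to 4.70. The table has 24973 rows, 24015 of which were given 1 symbol by the platform's gene table and 958 were not named here. For 4 symbols with several rows the brightest row on average was used, which left 24011 genes, and 0 value columns were left unmapped. Groups and replicate numbers came from the samples' labels, which spell the genotype Rpos1-null in places. The study's methods compare genotypes by one-way analysis of variance with no adjustment named, here called the methods' test.

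From the deposited log2 values, Rspo1-null minus wild-type was fitted in limma 3.58.1 (R 4.3.3) with no block, adjusting p-values over all genes by Benjamini-Hochberg, at a threshold of 0.05, and the fit was tested on simulated data. Summaries and figures used Python 3.11.15, pandas 2.3.3, numpy 2.4.6 and matplotlib 3.10.9. Alternatives were the replicate number as a block, the Xist state as a block, an intensity trend, the methods' test, median centring, cyclic loess, only genes above background, the mean of several rows and leaving out each array. The paired numbers were checked by the correlation of deviations from the group means over all genes, which was -0.358 for equal numbers, so the block is an alternative only.

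Genes named are the 10 members, a fixed set of checks and relatives, and up to 3 genes a direction from each of 4 lists (relatives, complex partners, cadherin junction, targets). The genes from the lists have the lowest unadjusted p among those above background whose groups do not overlap. Further partners and targets are named outside this rule to show how their lists varied. The members were chosen by name for their proteins' roles, and no measured value enters their rule, but they, the lists and the block by Xist state were chosen with earlier results of these data known. Promoter windows came from RefSeq on GRCm38.p6.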

Additional observations from a re-analysis of the deposited data

How the results depend on the processing

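With 2 arrays a group, differences smaller than the intervals given cannot be told from 0. For the members, 0 values passed an unadjusted p of 0.05 under any alternative. The blocks, the intensity trend, the methods' test, only genes above background and the mean of several rows left each member's difference as it was. In this design they could not change its sign. Only median centring and cyclic loess could, and of 79 values that kept all arrays 4 changed sign. With cyclic loess Ctnna1 became -0.080, and with median centring Gsk3a became 0.021, Csnk1a1 0.036 and Jup 0.036. Beyond the members, Cdh15 became -0.039 with cyclic loess, and Csnk1d 0.031 and Csnk1e 0.019 with median centring. Axin2 gave no value in the fit of genes above background. Genes past an unadjusted p of 0.05 numbered 760 (288 higher and 472 lower) and became 400 (163 and 237) with the replicate block, in which 0 members passed, 280 (127 and 153) with only genes above background, 435 higher and 317 lower with median centring, 346 and 337 with cyclic loess, and 403 and 736 with the methods' test. With the crossed pairing, which is the block by Xist state, 1284 genes passed, 605 of them higher. No gene passed an adjusted p of 0.05 in limma or the methods' test. Leaving out 1 array gave 540 to 1711 genes, 205 to 823 higher and 245 to 888 lower. Without 1 array, 12 of 40 member values changed sign, with log2 differences of -0.14 to 0.30 for Ctnnb1, -0.12 to 0.12 for Ctnna1, -0.20 to 0.091 for Apc, -0.071 to 0.15 for Axin1, -0.13 to 0.060 for Gsk3a, -0.18 to 0.15 for Csnk1a1, -0.22 to 0.39 for Btrc and -0.24 to 0.21 for Jup. The 2 members that kept their sign ran from 0.11 to 0.37 for Gsk3b and from -0.51 to -0.13 for Axin2. Likewise Apc2 ran from -0.061 to 0.086, Cdh15 from -0.19 to 0.25, Cdh2 from -0.037 to 0.28, Csnk1d from -0.055 to 0.011, Csnk1e from -0.18 to 0.11 and Lef1 from -0.77 to 0.19. Without 1 array, median differences ran from -0.083 to 0.081 for the members and -0.12 to 0.082 for the junction list. They ran from -0.06 to 0.03 for the partners, -0.09 to 0.01 for the relatives and -0.16 to -0.03 for the targets. With all arrays kept, the median of the targets went from -0.04 to 0.08 with only genes above background. It was 0.03 with cyclic loess and 0.02 with median centring. With median centring the medians of the members and of the other lists turned positive as well. Median centring moves the difference of every gene by the same amount. Keeping only genes above background changes which genes enter a median and no gene's difference. The cause of the other shifts was not tested.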
